A study of Arabidopsis thaliana with 12 samples.

Results

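Aquaporins are membrane channels that let water and small uncharged solutes cross a membrane, and the family examined here holds 35 genes of Arabidopsis thaliana among the 27366 loci named in the deposited tables. They are all the genes of the family, whatever their level or response: 13 plasma membrane intrinsic proteins (PIP), 10 tonoplast intrinsic proteins (TIP), 9 nodulin 26-like intrinsic proteins (NIP) and 3 small basic intrinsic proteins (SIP). Members are named with a hyphen, as in TIP2-3, where a semicolon is also in use. RNA came from seedlings labelled control or mVCs, the latter kept with volatiles released by a fungus, Tolypocladium inflatum GT22. Both were sampled after 3, 24 or 48 h. The labels give 2 libraries for each of the 6 groups. They give no accession line, age or growth medium of the plants, and nothing shows that the libraries of a group came from separate cultures. The comparison asks which transcripts respond to the fungal volatiles at each time.

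PIP proteins sit mostly in the plasma membrane and carry much of the water that moves through root and leaf cells, and some also pass carbon dioxide or hydrogen peroxide. TIP proteins sit in the vacuolar membrane, where they set its permeability to water, ammonia and urea. NIP proteins conduct boric acid, arsenite, lactic acid and other small solutes, and SIP proteins are found in the endoplasmic reticulum. In plants the amount of aquaporin transcript is known to respond to drought, nutrient supply and low oxygen.

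The values are FPKM, which are scaled to transcript length, so members can be ranked within a group. The authors' deposited tables hold 1 value per gene and group, so the spread between libraries cannot be seen, overlap between groups cannot be judged, and no SD is given. Sequencing depth is unknown. "Rose" and "fell" are used only where q was below 0.05 in the authors' deposited table of that time, where 19480, 19326 and 19415 rows were tested at 3, 24 and 48 h. The error given with a log2 fold change is the fold change divided by the deposited statistic, and it can be wider than what underlies the deposited p-value. Each time has its own table, so levels at different times are set side by side without comparison.

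Tissue markers showed shoot and root RNA in every group. The 5 green tissue markers summed to 41811 to 45081 FPKM, the 4 root endodermis genes CASP1, CASP2, CASP4 and CASP5 to 94.8 to 119 FPKM, and 4 root hair genes to 76.1 to 99.6 FPKM. Of the 3 pollen markers, VGD1 and VGDH1 were listed at 0 in all 6 groups and PPME1 reached only 0.082 FPKM. The 7 seed markers stayed at or below 1.003 FPKM each.

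All 35 members had a row at every time. In 23 of them the level was at or above 10 FPKM in all 6 groups, and 7 stayed under 1 FPKM in every group: TIP1-3, TIP3-1, TIP3-2, TIP5-1, NIP4-1, NIP4-2 and NIP7-1. TIP3-1 and TIP3-2 are channels of the seed storage vacuole, and TIP1-3, TIP5-1, NIP4-1 and NIP4-2 are known from pollen. TIP1-3, TIP5-1 and NIP4-1 were listed at 0 in all 6 groups. The other 5 members, TIP2-3, NIP2-1, NIP3-1, NIP6-1 and SIP1-2, lay between these sets. In control seedlings TIP1-2, a water channel of the vacuole, was the most abundant member, at 1827, 2179 and 1886 FPKM at 3, 24 and 48 h, which put it at rank 47, 46 and 49 of all rows.

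**Figure D1:**
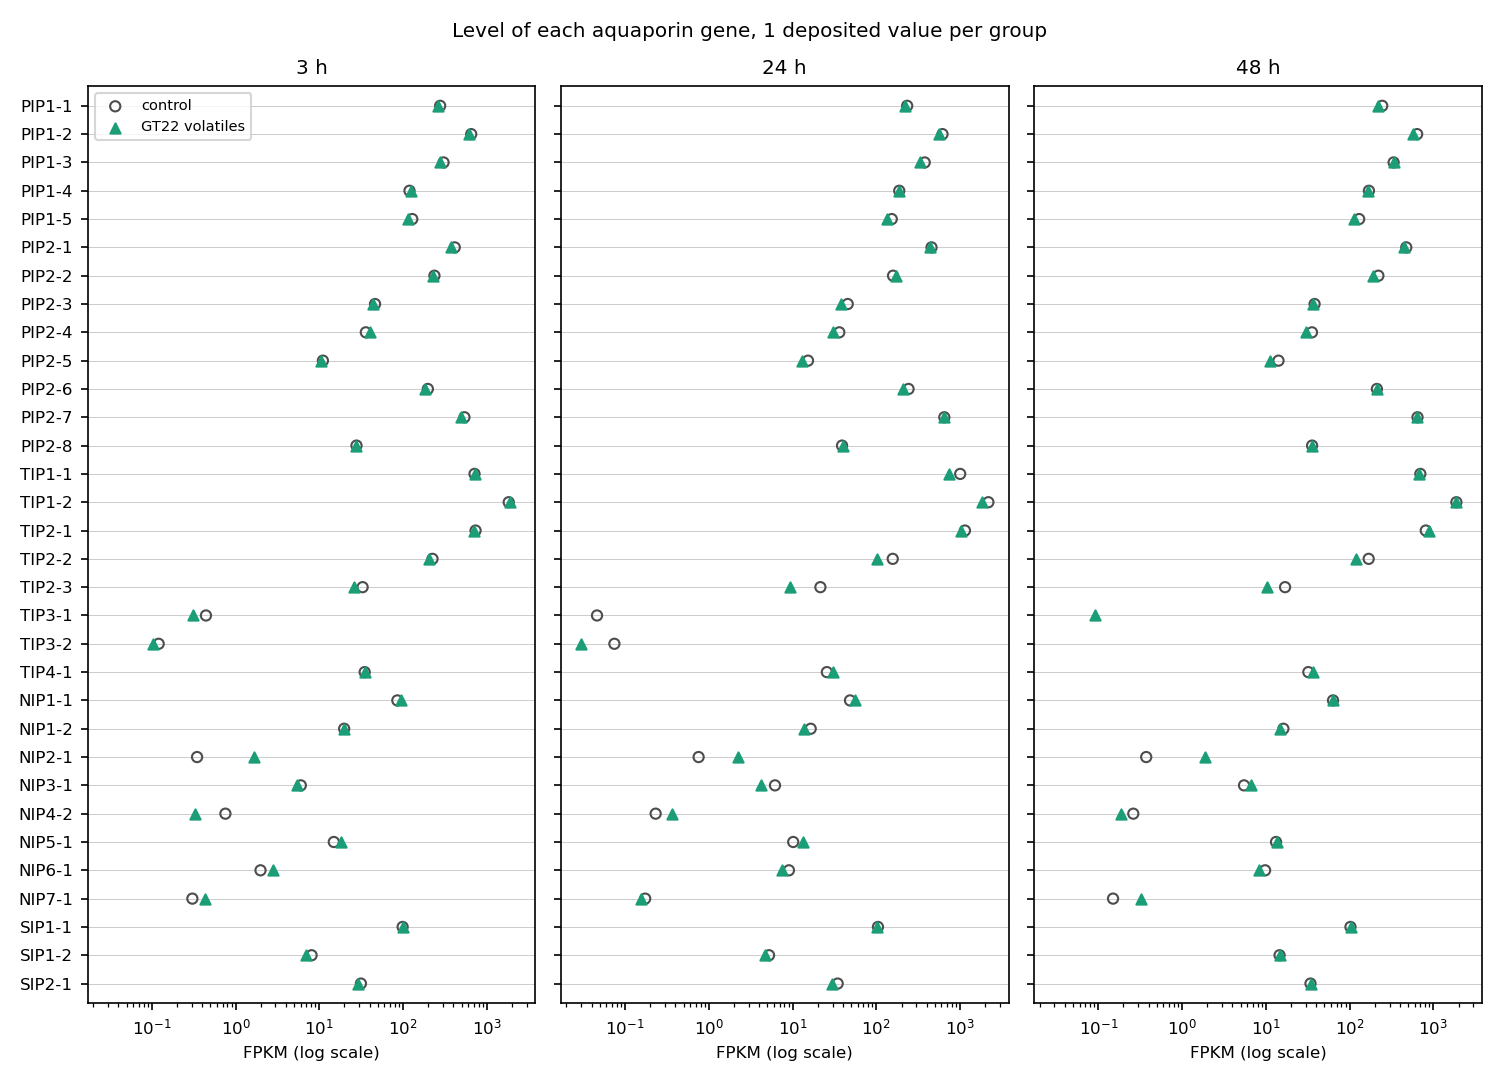
FPKM on a log axis for the 32 aquaporin genes with any value above 0, at 3, 24 and 48 h; open circles are control and filled triangles are GT22 volatiles, each 1 deposited value per group, and values of 0 are not drawn. Most pairs of symbols coincide, the triangle of TIP2-3 lies left of its circle at 24 h (9.42 against 21.5 FPKM), and that of NIP2-1 lies right of its circle at all 3 times.

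By q-value 1 member changed, and it did so at 24 h. TIP2-3, a vacuolar channel known to pass ammonia, fell at 24 h to 0.438 of its control level. At 3 h no member rose or fell among 29 tested, where 0.0565% of all tested rows fell and 0.0565% rose in the authors' deposited table. At 24 h 1 of 28 tested members fell and 0 rose, where 0.0828% of all tested rows fell and 0.0414% rose in the authors' deposited table. At 48 h 0 of 28 tested members fell or rose, where 0.0361% of all tested rows fell and 0.216% rose in the authors' deposited table. By a deposited p-value below 0.05, without adjustment, 0, 3 and 2 tested members were lower at 3, 24 and 48 h and 0 were higher at any time. The shares of all tested rows that were lower by that rule were 1.28%, 1.96% and 1.22%, and 0.955%, 1.01% and 1.55% were higher. The members lower by that rule were all TIPs: TIP1-1, TIP2-2 and TIP2-3 at 24 h, and TIP2-2 and TIP2-3 at 48 h.

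TIP2-3 (AT5G47450, TAIR10 chromosome 5, 19248249 to 19249504) stood at 32.9 FPKM in controls and 26.3 under the volatiles at 3 h. At 24 h it stood at 21.5 FPKM in controls and 9.42 under the volatiles, and at 48 h at 17.0 and 10.4. The volatile group was the lower of the 2 at each time, with the widest gap at 24 h. The log2 fold changes were -0.32, -1.19 and -0.71, with implied errors of 0.25, 0.34 and 0.34. In the authors' deposited table the p-values were 0.072, 5e-05 and 0.0035, and the q-values 0.9998, 0.0403 and 0.531. At all 3 times 5e-05 was the smallest deposited p-value of any tested row, and at 24 h 0.0403 was the smallest q-value. The 24 h values of TIP2-3 therefore stand at the lower limit of that table and do not rank it among the called rows. At 24 h 119 tested rows had a lower finite fold change. The call at 24 h was lost when p was taken from the deposited statistic under a normal curve, with an adjusted value (Benjamini-Hochberg) of 0.499. The seedling RNA mixed shoot and root, so fewer cells that express a gene and less of its RNA per cell cannot be told apart.

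TIP2-2 (AT4G17340, chromosome 4, 9699253 to 9700410), a vacuolar channel known mainly from roots, stood at 225 FPKM in controls and 204 under the volatiles at 3 h. It stood at 157 and 102 FPKM at 24 h, and at 169 and 120.3 FPKM at 48 h, control first. Like TIP2-3 it was lower in the volatile group at each time, with log2 fold changes of -0.14, -0.62 and -0.49 and implied errors of 0.23, 0.27 and 0.25. It did not pass the q-value threshold at 24 or 48 h, with p-values of 0.00125 and 0.005 and q-values of 0.383 and 0.672 in the authors' deposited table. The coding sequences of TIP2-2 and TIP2-3 are the same at 81.5% of aligned bases, and their longest identical stretch is 26 bases. The sources used here do not say how reads shared by related genes were treated.

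The 250 bases before the annotated gene start are shown for TIP2-2 and TIP2-3, the members that stood lower together, and for NIP2-1, the member with the highest fold changes. They come from the RefSeq assembly TAIR10.1, in which all 24956 single-gene rows of the 3 h table that could be compared overlapped their gene. The windows are chr5:19249623-19249872 on the minus strand, chr4:9698690-9698939 on the plus strand and chr2:14515989-14516238 on the minus strand, each printed 5′ to 3′ toward the gene. Capitals mark matches on either strand to TATAAA (the TATA box), CACGTG (the G-box), AAAATATCT (the evening element of clock genes), TTGAC (the core of the W-box of WRKY factors) and AAACCA (the first letters of the hypoxia-responsive promoter element), with no overlap between matches.
TIP2-3: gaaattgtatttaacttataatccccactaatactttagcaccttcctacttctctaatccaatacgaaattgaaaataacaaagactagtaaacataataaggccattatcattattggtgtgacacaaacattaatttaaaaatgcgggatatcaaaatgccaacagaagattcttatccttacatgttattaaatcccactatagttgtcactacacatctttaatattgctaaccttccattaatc
TIP2-2: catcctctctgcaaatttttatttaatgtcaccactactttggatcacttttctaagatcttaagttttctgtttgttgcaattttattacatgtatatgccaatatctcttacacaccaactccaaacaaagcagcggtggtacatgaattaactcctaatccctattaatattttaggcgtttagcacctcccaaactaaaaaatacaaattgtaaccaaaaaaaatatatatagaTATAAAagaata
NIP2-1: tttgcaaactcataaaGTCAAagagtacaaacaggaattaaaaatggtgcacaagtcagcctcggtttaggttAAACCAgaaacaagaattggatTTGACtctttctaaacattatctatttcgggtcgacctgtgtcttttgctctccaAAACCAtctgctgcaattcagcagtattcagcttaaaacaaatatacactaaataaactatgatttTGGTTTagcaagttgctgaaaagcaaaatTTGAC

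The TIP2-3 window held none of these words, and that of TIP2-2 held TATAAA once, starting 12 bases before the gene. The NIP2-1 window held AAACCA at 3 places and TTGAC at 3. At least 3 matches to AAACCA were present in 0.973% of the same windows of 27443 protein-coding genes and in no other aquaporin. At least 3 to TTGAC were present in 3.38%, and in 2 aquaporins with NIP2-1 included. The limit of 3 was taken from the counts of NIP2-1 itself. Over all such windows 47.3% held TATAAA, 6.49% CACGTG, 2.36% AAAATATCT, 44.9% TTGAC and 27.3% AAACCA. Of the 35 aquaporins 13 held TATAAA, 0 held CACGTG or AAAATATCT, 19 held TTGAC and 9 held AAACCA. The words were chosen after the expression values had been seen, and a match describes letters only. AAACCA is only the opening of the hypoxia-responsive element. The letters that follow it were not searched, so no match here shows the whole element.

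TIP1-1 (AT2G36830, chromosome 2, 15445425 to 15446574), an abundant vacuolar channel for water that also passes urea and hydrogen peroxide, stood at 713 and 726 FPKM at 3 h, control first. At 24 h it stood at 1004 FPKM in controls and 730.0 under the volatiles, and at 48 h at 700.2 and 679. Only the 24 h pair was far apart, with a log2 fold change of -0.46, an implied error of 0.26, and p 0.0222 and q 0.9996 in the authors' deposited table. The 95% interval from the implied error, -0.96 to 0.04, held 0.

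The remaining expressed TIPs gave smaller differences. TIP2-1, a vacuolar channel for water and ammonia with high levels in the shoot, stood at 735 and 709 FPKM at 3 h, 1144 and 1013 FPKM at 24 h, and 813 and 897 FPKM at 48 h, control first. TIP1-2 stood at 1827 and 1887, 2179 and 1844, and 1886 and 1873 FPKM in the same order. TIP4-1, another vacuolar channel found in roots, was the higher in the volatile group at each time, at 34.8 and 35.6, 25.7 and 30.3, and 32.2 and 36.1 FPKM. In the authors' deposited table the lowest p-value of these 3 genes was 0.226, for TIP4-1 at 24 h.

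**Figure D2:**
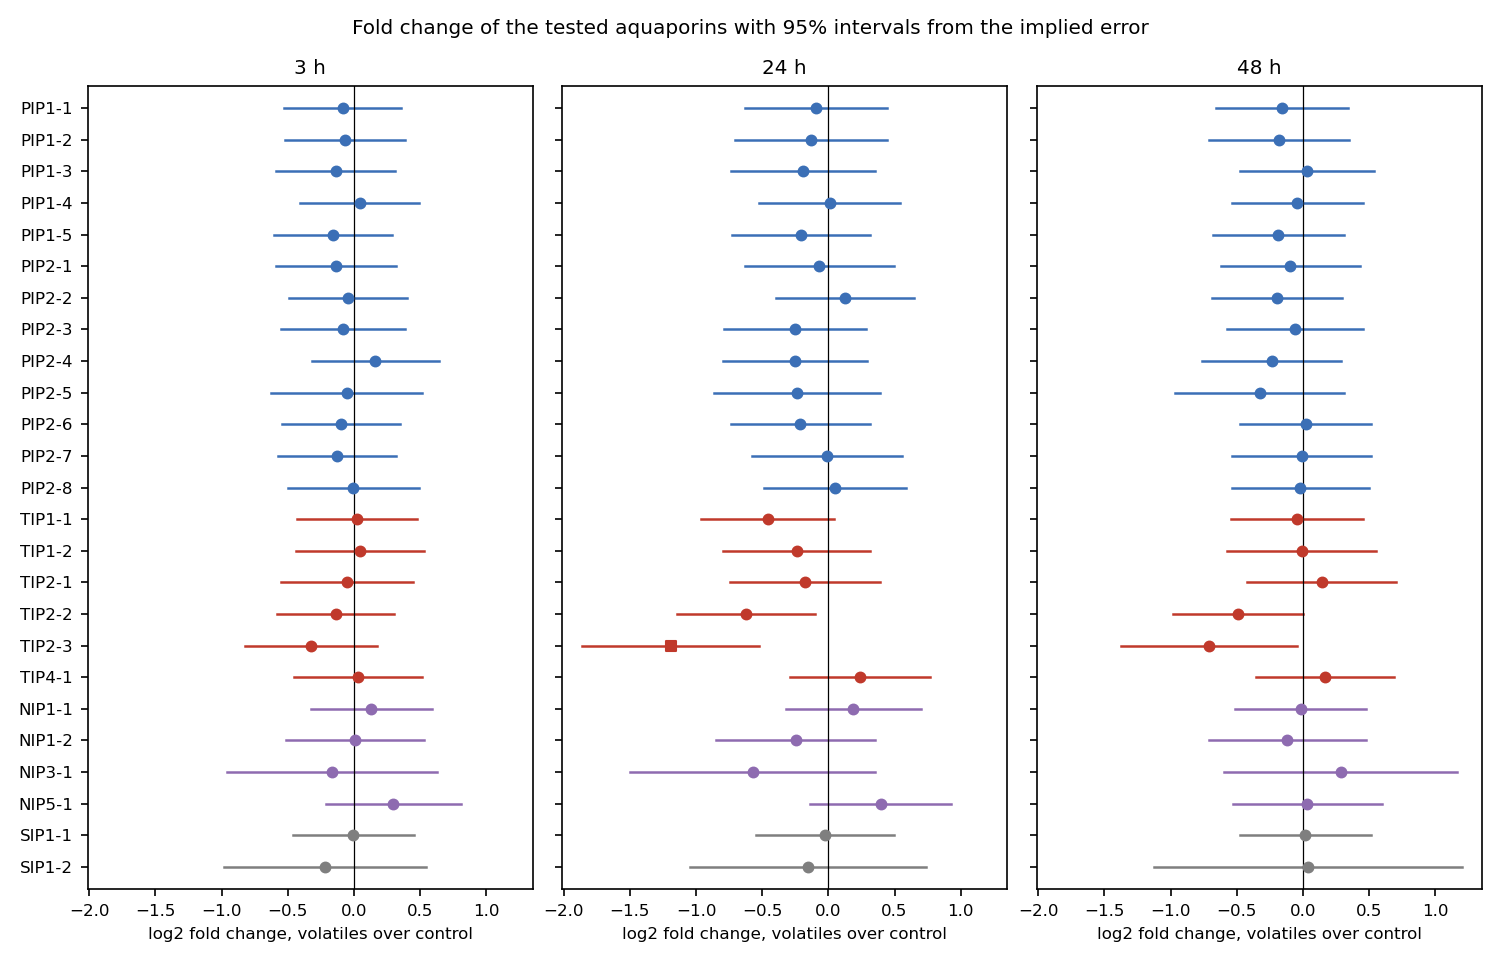
Log2 fold change of volatiles over control for the 25 aquaporins tested at all 3 times with narrow errors (SIP2-1, NIP2-1 and NIP6-1 are left out), coloured by subfamily; points are the deposited values, lines are 95% intervals from the implied error, and the square marks q below 0.05. The PIPs lie near 0 throughout, and TIP2-3 and TIP2-2 lie left of 0 at 24 h.

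The summed root markers were also lower under the volatiles at 24 h. The 5 green tissue markers were lower then too, at 43670 and 41811 FPKM, control first. The sum of all rows stood at 1.012e+06 and 963979 FPKM. The summed level of the 4 CASP genes, whose products build the barrier of the root endodermis, was 113 and 114 FPKM at 3 h, 119 and 94.8 FPKM at 24 h, and 107 and 104 FPKM at 48 h, control first. CASP1 alone went from 85.6 to 62.0 FPKM at 24 h, where p was 0.0358 in the authors' deposited table, and the other 3 gave log2 fold changes from -0.98 for CASP5 to 0.12 for CASP4. At 48 h CASP5, at 3.03 and 1.42 FPKM, was the one gene of the list below 0.05 by p-value in the authors' deposited table. The 4 root hair markers COBL9, EXPA7, EXPA18 and PRP3 summed to 76.1 and 88.1 FPKM at 3 h, 96.7 and 86.2 FPKM at 24 h, and 99.6 and 96.1 FPKM at 48 h. At 24 h 3 of these 4 lay below 0 and COBL9 lay above. The part of root content in the TIP values at 24 h was not tested.

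**Figure D3:**
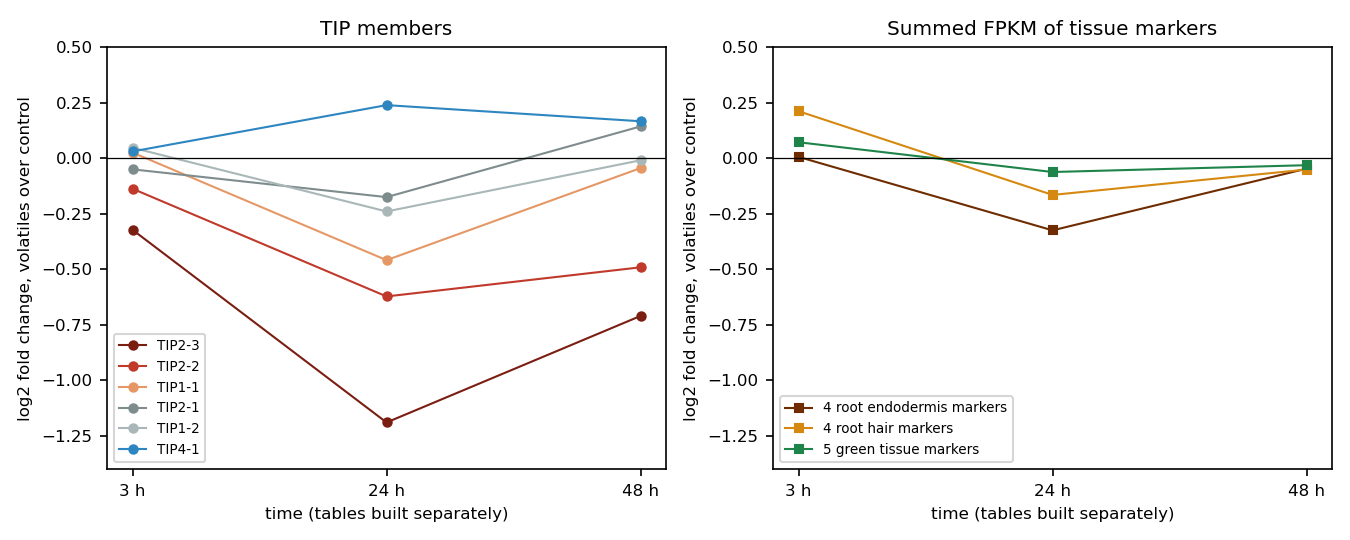
Log2 fold change of volatiles over control at 3, 24 and 48 h for the 6 expressed TIP genes (left, circles) and for the summed FPKM of 4 root endodermis, 4 root hair and 5 green tissue markers (right, squares). TIP2-3 reaches -1.19 at 24 h and the endodermis sum goes from 119 to 94.8 FPKM; lines join separately built tables and only guide the eye.

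A member's response was set against its response at another time through the difference of the 2 fold changes, taking the implied errors as normal and adjusting (Benjamini-Hochberg) over all rows. With 1 value per group no exact test could be had. No member passed for any of the 3 pairs of times, among 27 members tested between 3 and 24 h, 26 between 3 and 48 h, and 27 between 24 and 48 h. Of all rows tested for these pairs only 0, 5 and 1 passed. Before adjustment 1, 0 and 0 members had a p-value below 0.05, as did 50, 76 and 72 of 16760, 16881 and 16904 rows. The member was TIP2-3, whose fold change was lower at 24 h than at 3 h by a difference of -0.87, with a 95% interval of -1.70 to -0.03 and an unadjusted p-value of 0.0417, which adjustment took to 0.99996. With these errors a difference of this size could not be separated from none after adjustment. Over all rows, unadjusted p-values below 0.05 were far rarer than a share of 0.05. The implied errors therefore look too wide for this test, which could call little in any gene.

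The PIP genes stood close to their control level at all 3 times. All 13 PIPs were tested at each time, and by p-value 0 were below 0.05 in the authors' deposited table. Their log2 fold changes ran from -0.16 to 0.16 at 3 h, -0.25 to 0.13 at 24 h and -0.33 to 0.03 at 48 h, and implied errors from 0.23 to 0.33 over all times. The 95% intervals reached from -0.63 to 0.64, -0.86 to 0.65 and -0.96 to 0.54, so smaller changes of single PIPs could not be seen. Among them 11, 10 and 11 lay below 0, where 52.4%, 54.7% and 51.0% of all tested rows did and 47.6%, 45.3% and 49.0% lay above 0. At 24 h that count was 6 with quantile normalization and 8 after rescaling each group to a common sum (TPM), so the direction of the PIPs at that time depends on the scaling. At 3 and 48 h it was 10 or 11 under every scaling.

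The most abundant PIPs were PIP1-2, which contributes to water flow through roots, and PIP2-7. PIP1-2 stood at 652 and 621 FPKM at 3 h, 618 and 564 at 24 h, and 641 and 566 at 48 h, control first. PIP2-7 stood at 541 and 495, 648 and 644, and 648 and 643 FPKM. PIP2-1, a water channel of roots and guard cells, stood at 414 and 377, 456 and 435, and 476 and 446 FPKM. All 3 were slightly lower in the volatile group at each time, by log2 fold changes of -0.18 at the most, which is within the implied errors, and with quantile normalization none of the 3 was lower at 24 h.

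PIP1-1, PIP1-3 and PIP2-6 ranged from 185 to 378 FPKM over the groups, and PIP1-4 and PIP1-5 from 115 to 189 FPKM. PIP1-4, known to pass hydrogen peroxide during immunity, stood at 119 and 123, 188 and 189, and 170.3 and 165 FPKM at 3, 24 and 48 h. The pair was within a few percent at each time, with log2 fold changes of 0.04, 0.01 and -0.04. PIP2-4 and PIP2-5, root channels of lower level, stood at 36.2 and 30.3 and at 15.3 and 13.0 FPKM at 24 h, and their log2 fold changes were -0.25 and -0.24. At 48 h theirs were -0.24 and -0.33, and at 3 h 0.16 and -0.06. PIP2-3 and PIP2-8 ranged from 27.7 to 46.3 FPKM. PIP2-2 and PIP2-3 lie next to each other on chromosome 2 and share 94.8% of aligned coding bases, with 1 identical stretch of 242 bases, so their separate values of 158 to 237 and 36.7 to 46.3 FPKM are uncertain.

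Over the 28 members tested at all 3 times, 9 were lower in the volatile group at each time and 3 were higher at each time, where 18.4% and 13.8% of genes tested at all times did so. The 9 were TIP2-2, TIP2-3 and 7 PIPs, and the 3 were TIP4-1, NIP2-1 and NIP5-1. The lower set depends on the scaling, which was tried after the data had been seen. With quantile normalization it held 6 members, of which 3 were PIPs, beside 16.0% of genes, and the most abundant PIPs were no longer in it. As TPM it held 9, of which 5 were PIPs, beside 16.3% of genes. TIP2-2 and TIP2-3 were in it, and TIP4-1, NIP2-1 and NIP5-1 made up the higher set, under each of the 4 scalings compared. TIP4-1 at 3 h and NIP5-1 at 48 h had log2 fold changes of only 0.03, so their place rests on values near 0. Rescaling to TPM moved all rows of a time by 0.07 at the most, too little to turn the sign of TIP2-3 or NIP2-1. The median log2 fold change over tested members was -0.06 at 3 h, -0.18 at 24 h and -0.03 at 48 h. Over all tested rows it was -0.01, -0.02 and 0.00. With quantile normalization the median at 24 h was -0.10.

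NIP2-1 had the highest fold changes of the family, at a very low level and without passing any threshold. NIP2-1 (AT2G34390) is known to pass lactic acid and to be induced by low oxygen. It stood at 0.348 FPKM in controls and 1.64 under the volatiles at 3 h, at 0.756 and 2.21 at 24 h, and at 0.373 and 1.90 at 48 h. The volatile group was the higher of the 2 at all 3 times, by folds of 4.72, 2.92 and 5.08. The implied errors of the log2 fold changes of 2.24, 1.55 and 2.34 were 1.67, 1.15 and 1.59, where the authors' deposited table gives p-values of 0.202, 0.0837 and 0.0708. With a pseudocount of 1 FPKM the log2 fold changes were 0.97, 0.87 and 1.08. At 3, 24 and 48 h 18, 46 and 35 tested rows had a higher finite fold change. At such levels a gene can enter the test through the group where it is high, so its presence among tested members adds nothing. Its 3′ end overlaps AT2G34380 on the other strand by 30 bases, and that gene stood at 3.43 and 3.96, 3.68 and 3.43, and 4.01 and 3.27 FPKM. RefSeq also annotates AT2G08660 on the other strand, overlapping NIP2-1, and reads from the shared stretch cannot be told apart unless the counting used strand.

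The other NIPs showed no call. NIP5-1, the boric acid channel of root uptake, stood at 14.9 and 18.3 FPKM at 3 h, 10.2 and 13.4 FPKM at 24 h, and 13.3 and 13.6 FPKM at 48 h. It was the higher in the volatile group at each time, where the authors' deposited table gives p-values of 0.1065, 0.0566 and 0.865. NIP6-1, a boric acid channel of shoot nodes, stood at 1.99 and 2.80, 9.05 and 7.42, and 9.81 and 8.31 FPKM. NIP1-1, a channel through which arsenite enters roots, was the most abundant NIP, at 85.5 and 93.7, 48.6 and 55.3, and 63.5 and 62.8 FPKM. NIP1-2, which carries an aluminium complex with malate, ranged from 13.9 to 19.9 FPKM. NIP3-1, another arsenite channel, stood at 6.02 and 5.37 FPKM at 3 h and 6.17 and 4.16 FPKM at 24 h, and its 48 h row, at 5.50 and 6.70 FPKM, merges it with AT1G31880. NIP4-2 was tested at 3 h only, at 0.757 and 0.332 FPKM.

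SIP1-1 stood close to its control level at each time, at 98.9 and 98.6, 104.7 and 103, and 103 and 104 FPKM. Its log2 fold changes ran from -0.02 to 0.02, with an implied error of 0.27 at the most. SIP1-2 ranged from 4.70 to 15.0 FPKM and SIP2-1 from 29.1 to 34.6 FPKM. The implied errors of SIP2-1, 1.72, 2.67 and 2.34, are wide, so that only very large changes of it could be detected. SIP2-1 overlaps AT3G56940 on the other strand by 147 bases, a gene at 734 to 1437 FPKM, and reads from the shared stretch cannot be placed unless the counting used strand. The same limit holds for SIP1-2 (444 bases with AT5G18300), TIP2-1 (120 with AT3G16250) and NIP6-1 (26 with AT1G80750). It also holds for TIP3-1, TIP3-2 and TIP5-1, which stayed under 1 FPKM.

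The PIP and TIP genes held nearly all aquaporin transcript. In controls TIPs made up 52.2%, 56.8% and 51.1% of the summed FPKM of the family at 3, 24 and 48 h, and PIPs 43.8%, 40.3% and 45.2%. NIPs and SIPs together held the rest, with 1.15% to 2.14% each. The TIP sum was 3568 and 3589 FPKM at 3 h, 4531 and 3729 at 24 h, and 3617 and 3616 at 48 h, control first. Only at 24 h did the groups stand apart, by -17.7% (-13.6% as TPM), and TIP1-2 and TIP1-1 made up -334 and -274 FPKM of the difference of -802 FPKM. TIP2-3 accounted for only -12.1 FPKM of it. The PIP sum differed by -6.23%, -6.00% and -5.71%, and as TPM by -8.14%, -1.34% and -6.07%. The tables give no spread for such sums, and they are not tested.

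**Figure D4:**
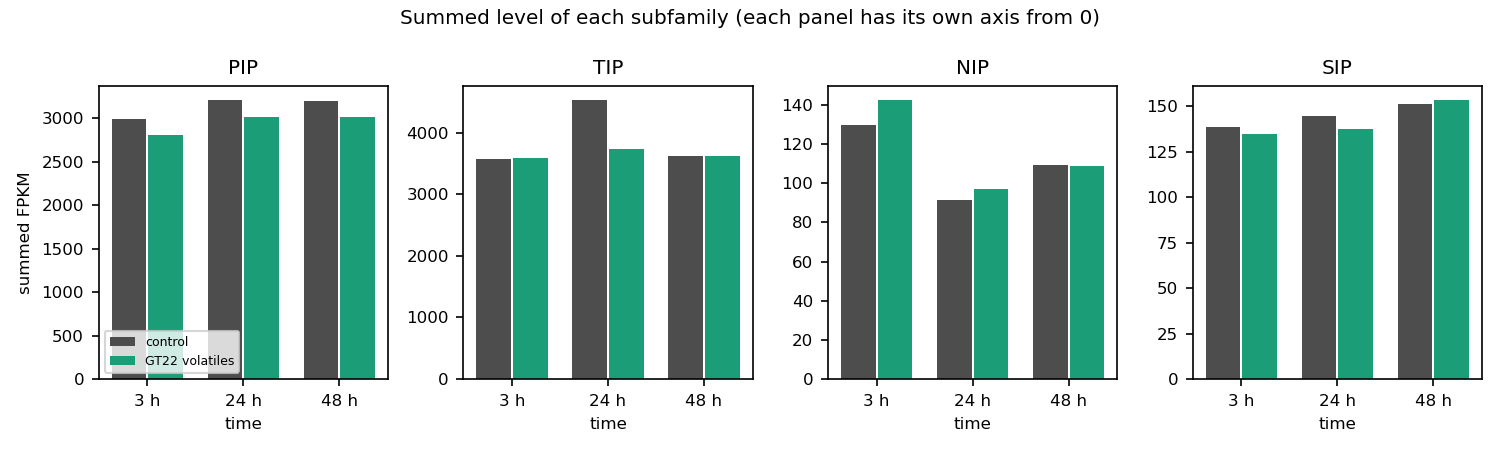
Summed FPKM of the 13 PIP, 10 TIP, 9 NIP and 3 SIP genes in control (grey) and GT22 volatile (green) seedlings at 3, 24 and 48 h, as bars from 0 with 1 deposited value per gene and group and no error. The TIP bar is lower under the volatiles at 24 h, 3729 against 4531 FPKM, and level with control at 3 and 48 h.

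Genes that carry the same solutes by other routes gave no call. Of 7 ammonium and urea transporters, AMT1-1 to AMT1-5, AMT2 and DUR3, 5, 5 and 6 were tested at 3, 24 and 48 h, and by p-value 0 were below 0.05 in the authors' deposited table. Their median log2 fold changes were 0.12, 0.00 and 0.16. At 24 h the log2 fold changes of those tested ran from -0.25 for AMT1-1, the most abundant, to 0.25 for DUR3. AMT1-1 then stood at 98.6 and 82.8 FPKM, control first. Of 7 boron exporters, BOR1 to BOR7, 4, 5 and 5 were tested and 0 passed the q-value threshold. BOR5 stood at 1.64 FPKM in controls and 1.01 under the volatiles at 24 h, and at 1.33 and 0.734 at 48 h. The authors' deposited table gives it p-values of 0.0425 and 0.0217, and it did not pass by q-value.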

How the data were processed

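Reads were trimmed with Trimmomatic 3.6 and mapped with TopHat to TAIR10, per the submitters' processing notes; the sources used here do not name the tool that made the tables. The columns of the 3 tables are laid out like Cuffdiff output, per the file headers. The deposited values, 1 per gene and group, are taken as FPKM from that layout, since the headers name no unit. The p-values, q-values and the test statistic, a score, are the authors' own deposited comparison. The time of a table is in its name only. Library depth is unknown, so no counting interval is given. Rows without a gene name made up 1.24%, 1.29% and 1.28% of the 3 tables. TPM are FPKM rescaled here to a common sum in each group.

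Here fold changes were computed from FPKM with no pseudocount, with Python 3.11.15, pandas 2.3.3 and SciPy 1.17.1. The implied error is the fold change over the deposited statistic. Rows were found by locus, and 1 row per table was taken for each of the 35 members, a tested row first and then the most abundant. Of the 35 names 34 matched RefSeq symbols. For other lists 65 of 70 names matched. One planned marker gene is not reported here and is left out of its list's sum, for a reason unrelated to its values. Locus bounds are the tables', counted from 1. Coding identity came from global alignments with Biopython 1.88. The test between times took rows averaging 1 FPKM or more in both tables. It was tried on simulated data drawn with the same implied errors, which cannot show whether those errors fit the real data. All 35 members are accounted for, with full statistics for those with a p-value under 0.05. Genes of other lists were planned to be named only where theirs was. Some are named outside that rule, such as AMT1-1, AHA2, AVP1 and RMA3. The family, the lists and the tests were chosen with earlier results of these data known.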

Additional observations from a re-analysis of the deposited data

How the results depend on the processing

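With p taken from the deposited statistic under a normal curve, the count of aquaporins that passed at 24 h went from 1 to 0, and the cause was not tested. The counts at 3 and 48 h stayed at 0 under that setting, and all 3 counts kept their value with adjustment over rows averaging 1 FPKM or more, without merged rows, and when a log2 change of 1 or more was also asked. The median log2 fold change of the family ranged over its settings from -0.09 to -0.05 at 3 h, -0.18 to -0.10 at 24 h and -0.07 to -0.03 at 48 h. The TIP sum at 3 h was 0.576% higher on the deposited scale and differed by -1.47% as TPM. The count of members whose response differed between times was 0 with no filter, with a pseudocount of 0.1 and with quantile normalization. No paired analysis was possible because the tables hold 1 value per group, and leaving out each replicate was not run for the same reason. Members under 1 FPKM, and SIP2-1 and NIP6-1 with wide errors, limit what could be detected.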

Other observations

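Proton pumps energise transport across the same membranes. Of 11 plasma membrane pump genes, AHA1 to AHA11, 9 were tested at each time and 0 passed the q-value threshold in the authors' deposited table. AHA7, at 4.66 and 6.03 FPKM at 3 h, control first, had an unadjusted p of 0.0499 in the authors' deposited table, and AHA2, the most abundant, stood at 273 and 298 FPKM. At 3 and 48 h 5 of the 9 tested lay below 0. At 24 h 8 of the 9 did. Among them was AHA8, at 10.07 and 7.36 FPKM in a row that it shares with AT3G42630. Its p was 0.0506 in the authors' deposited table. AHA10 lay above 0, at 0.414 and 0.759 FPKM. Of 12 tonoplast pump genes, all were tested and 0 had an unadjusted p-value under 0.05 at any time in the authors' deposited table. Their median log2 fold changes were 0.04, -0.10 and 0.07 at 3, 24 and 48 h. At 3, 24 and 48 h 5, 10 and 2 of the 12 lay below 0, as did 52.4%, 54.7% and 51.0% of all tested rows. At 24 h the vacuolar pyrophosphatase AVP1 stood at 536 and 487 FPKM. Rescaling to TPM raised every log2 fold change at 24 h by 0.07, and the pump counts were not repeated with it.

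Among 10 genes known to act on aquaporins, such as SYP121, a syntaxin that delivers PIPs to the plasma membrane, and OST1, a kinase of abscisic acid signalling, 10, 9 and 9 were tested. None had an unadjusted p-value under 0.05 at any time in the authors' deposited table, and their median log2 fold changes were -0.06, 0.01 and -0.04. RMA3, of the RMA ubiquitin ligases that retain PIPs inside the cell, stood at 27.1 and 20.3 FPKM at 24 h, where the authors' deposited table gives p as 0.056. Among seed markers, CRA1, a storage globulin, stood at 0.944 and 0.427 FPKM at 3 h, where p was 0.0112 in the authors' deposited table.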
